A study of Mus musculus with 46 samples.

Results

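The 8 genes described here are transcription factors of the embryonic neural tube: Foxb1, Olig3, Olig2, Pax3, Pax6, Pax7, Sox1 and Neurog2. They were picked by symbol, out of 37108 genes in the gene table, for their expression late on the path of mouse embryonic fibroblasts (MEFs) that reprogram with a Nanog fusion, so their late levels with the fusion are given as a description. MEFs from Oct4-GFP (OG2) embryos received retroviral Oct4 together with either Nanog (NanogWT) or Nanog carrying at its N-terminus the part of SS18 that binds BRG1, the ATPase of the BAF chromatin remodelling complex (NanogBiD, NanogN70 in the labels). Time-course RNA filled 31 libraries over 8 time points (D0, D1, D3, D5 and D7, then D8, D10 and D12), 2 per combination and day except for 1 with NanogBiD at D8. A further 12 libraries came from established induced pluripotent stem cells (iPSCs), 6 per combination, and 2 MEF libraries and 1 library of OG2 mouse embryonic stem cells (mES) served as references. All time-course cells carried the Oct4 virus, D0 followed the infections, and per the study's methods the medium changed from iCD3 to N2B27 with 2iL after about a week. Vector transcripts and the cells' own Nanog and Pou5f1 transcripts are not told apart in these values.

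The neural tube is patterned from its roof to its floor by secreted signals, and each progenitor domain is marked by its own set of transcription factors. Pax3, Pax7 and Olig3 mark dorsal progenitors, Pax6 a broad middle territory and Olig2 the motor neuron and oligodendrocyte progenitors further ventrally. Sox1 is one of the SOXB1 factors of neuroectoderm, Neurog2 is a proneural basic helix-loop-helix factor that drives progenitors towards neurons, and Foxb1 is a forkhead factor of the early neural plate and of the hypothalamus and spinal cord. Pax3 and Pax7 also mark the precursors of skeletal muscle, and Pax3 the neural crest. None of the 8 belongs to the usual markers of naive pluripotency or of fibroblasts.

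In the reference cells the genes were close to silent. All 8 stood under 1 FPKM (fragments scaled to the length of the gene model and to the size of the library) in both MEF libraries, and 7 of 8 did so in mES, where Sox1 was at 7.61 FPKM. At D0 the 8 genes were again under 1 FPKM in every library of both combinations. At D12 the count at 1 FPKM or more in both libraries was 7 of 8 with NanogBiD and 5 of 8 with NanogWT. Within NanogBiD at D12 the means, which FPKM makes comparable between genes, ran from Sox1 (18.6 ± 8.7 FPKM, SD, n = 2) and Pax3 (17.0 ± 4.5) through Neurog2 (11.7 ± 1.3), Olig3 (7.92 ± 0.22), Pax6 (7.06 ± 1.86) and Foxb1 (4.25 ± 2.44) to Pax7 (2.79 ± 1.25). Sox1 and Pax3 overlapped in this order, as did Sox1 and Neurog2, Olig3 and Pax6, Pax6 and Foxb1, and Foxb1 and Pax7. Olig2 was listed at 0 in both libraries.

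The genes were chosen for a late level with the fusion, so their late levels are no test of that description. Sox1 came up by D3 with both combinations, Olig2 never reached 1 FPKM, and the other 6 had their highest mean at D10 with NanogBiD. The plot of levels by day shows these 3 patterns.

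**Figure D1:**
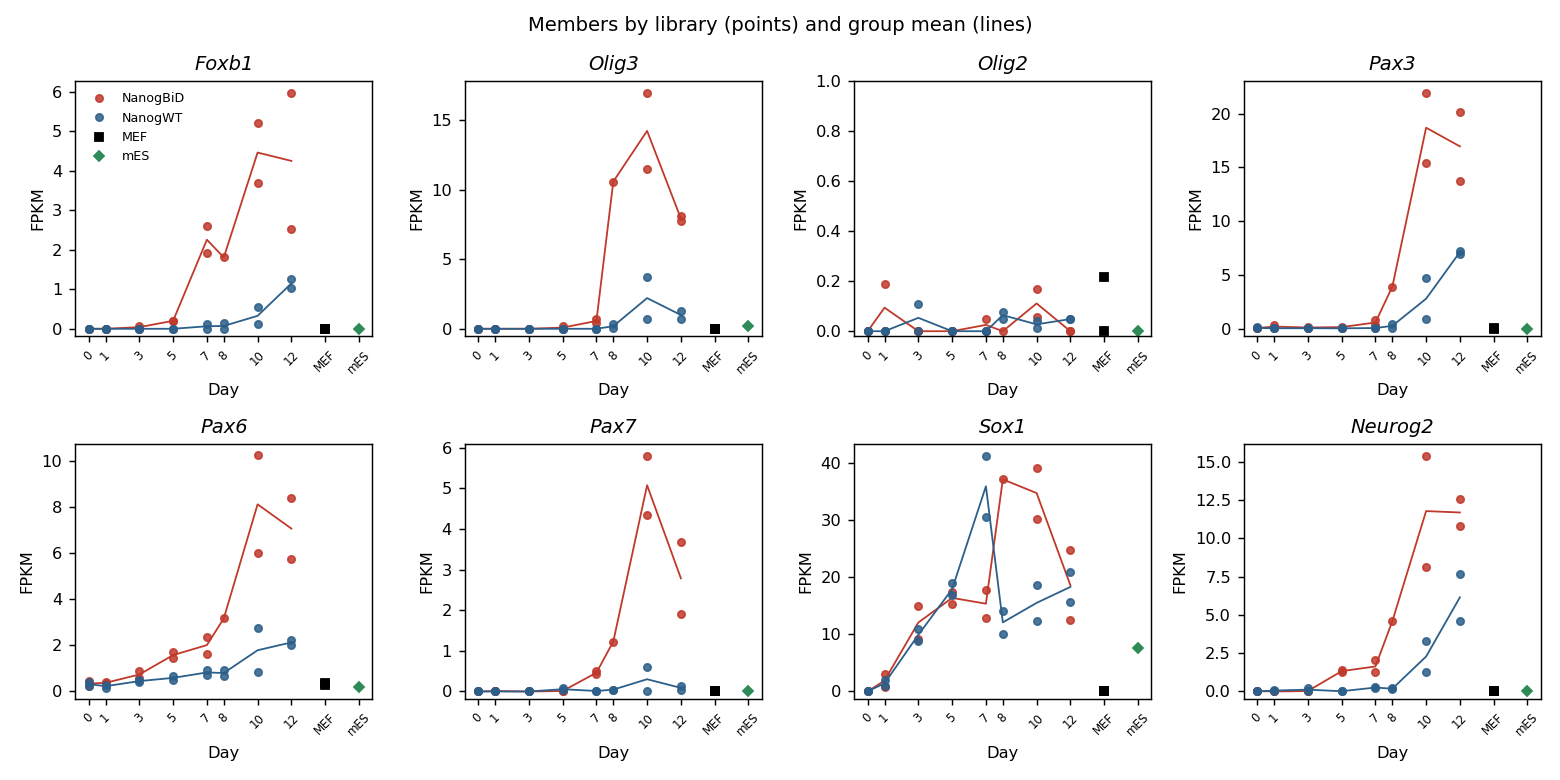
FPKM of each gene by day, with points for single libraries, lines for the group means, squares for MEF and diamonds for mES. Foxb1, Olig3, Pax3, Pax6, Pax7 and Neurog2 had their highest group mean in NanogBiD at D10, Sox1 was above 8 FPKM in every library from D3 on, and Olig2 was at most 0.215 FPKM anywhere.

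All positions are in the mm10 build. Foxb1 lies on chromosome 9 (69757710 to 69760940, minus strand), Olig3 on chromosome 10 (19356533 to 19358604, plus strand), Olig2 on chromosome 16 (91225457 to 91228677, plus strand) and Pax3 on chromosome 1 (78101267 to 78197134, minus strand). Pax6 lies on chromosome 2 (105668900 to 105697364, plus strand), Pax7 on chromosome 4 (139737062 to 139833528, minus strand), Sox1 on chromosome 8 (12395295 to 12400126, plus strand) and Neurog2 on chromosome 3 (127633135 to 127635631, plus strand). No chromosome holds 2 of them. Pax6 overlaps the antisense gene Pax6os1, which averaged 0.262 FPKM in MEF and 0.0495 FPKM or less at D7 and D12. Sox1 overlaps the transcript Sox1ot, whose means at D7 and D12 were between 0.276 and 0.582 FPKM in both combinations. The sources used here do not say whether strand was used in counting, so the values of Pax6 and Sox1 may hold reads of these partners.

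RefSeq promoter windows (GRCm38.p6, the same assembly as mm10) were at hand for 6 of the 8 genes, Foxb1 and Pax3 not among them. Those of Olig3 and Neurog2 are shown, as genes that were late and higher with NanogBiD. Each line gives the 250 bases before the start in RefSeq, 5′ to 3′ on the gene's strand, and capitals mark every match on either strand to a SOX motif (ATTGTT), the octamer (ATGCAAAT), an E-box (CANNTG), a homeodomain motif (TAATTA) or a TATA box (TATAAA).
Olig3: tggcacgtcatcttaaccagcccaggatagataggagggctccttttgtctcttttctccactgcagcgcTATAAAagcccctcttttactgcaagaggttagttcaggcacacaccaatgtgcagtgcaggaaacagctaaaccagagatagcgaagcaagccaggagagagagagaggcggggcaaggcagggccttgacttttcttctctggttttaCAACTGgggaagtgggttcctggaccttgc
Neurog2: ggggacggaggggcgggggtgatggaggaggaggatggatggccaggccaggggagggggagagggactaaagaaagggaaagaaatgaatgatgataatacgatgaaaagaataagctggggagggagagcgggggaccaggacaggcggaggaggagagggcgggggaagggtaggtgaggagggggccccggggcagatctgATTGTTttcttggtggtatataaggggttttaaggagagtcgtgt
The windows lie at chr10:19356289-19356538, chr3:127632886-127633135, chr8:12395269-12395518 and chr16:91225300-91225549, in the order Olig3, Neurog2, Sox1 and Olig2, all on the plus strand. RefSeq and the GENCODE models behind the gene positions above place the starts differently, so most of the Sox1 window, part of the Olig2 window and the last bases of the Olig3 window lie inside the GENCODE gene. Olig3 held an E-box 30 bases before the start and a TATA match 180 bases before it. Neurog2 held a SOX match 45 bases before the start, Olig2 a SOX match 67 bases and a TATA match 8 bases before it, and Sox1 held no match to any of the 5. Matches are to these exact letters, so the tatataa in the Neurog2 window is not counted as a TATA match. No window of the 6 genes held the octamer. Among all 32851 windows of this length, 9.42% held the SOX motif, 1.60% the octamer, 66.2% an E-box, 4.84% the homeodomain motif and 12.4% the TATA box. CpG dinucleotides numbered 4 in Olig3, 8 in Neurog2, 22 in Olig2 and 29 in Sox1, against a median of 6 over all windows, so the silent Olig2 and the early Sox1 both had CpG-rich windows. The late genes Pax6, with 15 in each of its windows, and Pax7, with 13, were above that median too, so the late genes had no common CpG level.

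The first question was when the combinations began to differ in these genes. One limma model on log2(FPKM + 1) covered all 31 libraries, and a gene was called at an adjusted p under 0.05 over all 16842 genes tested together with a change of 1 or more, either way, on the log2 scale. Olig2 was too low to enter, so 7 genes were tested. At D0, D1 and D3 none of the 7 was called in limma, where 0.76%, 1.33% and 3.7% of all genes tested were, and none had an unadjusted p under 0.05. Apart from Sox1, each was under 1 FPKM in all libraries of these days, where a log2 difference of 1 cannot be reached. Their missing calls on these days are therefore no result. At D5 Neurog2 alone was called, and at D7 Foxb1 and Neurog2 were higher and Sox1 lower with NanogBiD. The genes were chosen for later days of the NanogBiD path, so calls at D5 and D7 are not free of that choice. RNA of a whole culture was measured, so more cells expressing a gene and more RNA per cell cannot be told apart here.

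Neurog2 was the one gene called at D5. There it was at 1.26 and 1.40 FPKM with NanogBiD and at 0 and 0.0319 FPKM with NanogWT, where 0.0319 is worth a single read. The groups did not overlap, and the log2 difference was 1.2 (SE 0.27, limma adjusted p = 0.00365). Across all genes 3.2% were called higher at this day. At D7 the NanogBiD libraries held 1.24 and 2.03 FPKM of Neurog2 and the NanogWT libraries 0.199 and 0.316, which differed by 1.05 on the log2 scale (SE 0.27, limma adjusted p = 0.00558). Of all genes, 5.79% were called higher at D7. Again the groups did not overlap, but this call was lost without NanogBiD replicate 2 (0.83), without NanogWT replicate 1 (0.98) and under quantile normalization (0.94).

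Foxb1 was called at D7. It was listed at 0 in all 8 libraries of D0 and D1. In the 18 libraries where Foxb1 was at 0, 3 reads would have been worth 0.0321 to 0.0712 FPKM. With NanogBiD it was at 0.0830 and 0 FPKM at D3, at 0.207 and 0.196 at D5, and at 2.59 and 1.92 at D7, the latter 138 and 93 reads. With NanogWT it was at 0 throughout D3 and D5 and at 0.127 and 0 FPKM at D7, the former 6 reads. At D5 the combinations thus did not overlap, and with a pseudocount of 0.1 Foxb1 was called there (1.59, limma adjusted p = 0.0484), though not with 1 (0.27, limma adjusted p = 0.455). The libraries of the combinations lay far apart at D7, by 1.61 on the log2 scale (SE 0.22, limma adjusted p = 1.76e-05). The change from D0 to D7 itself differed between the combinations by 1.61 (SE 0.31, limma adjusted p = 0.00128). In that test of the difference, Foxb1 was the only one of the 7 called, and 10.1% of all genes were. Neurog2 (1.01, adjusted p = 0.0770), Sox1 (-1.15, adjusted p = 0.130) and the other 4, at 0.53 to 0.69, missed the threshold in limma. Pax7 (0.53) is among these 4, but it entered the model through late NanogBiD libraries alone, so its missing call is no result.

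Pax6 was already at a low level in MEFs, with 0.262 and 0.376 FPKM. At D5 it was at 1.70 and 1.45 FPKM with NanogBiD and at 0.496 and 0.684 with NanogWT, which did not overlap but missed the threshold (log2 difference 0.70, SE 0.26, limma adjusted p = 0.0736). With a pseudocount of 0.1, Pax6 was called at D5 (1.29, limma adjusted p = 0.0480). At D7 the values were 2.38 and 1.64 against 0.716 and 0.933 FPKM, so that a difference of 0.71 (SE 0.26) passed the adjusted p (0.0452 in limma) and not the 2-fold limit. Pax7 was at 0.418 and 0.505 FPKM with NanogBiD and at 0.0235 and 0 with NanogWT at D7, a difference of 0.53. Pax7 reached 1 FPKM in NanogBiD libraries of D8, D10 and D12 alone, so it entered the model through the levels that chose it, and no call is drawn for it at D7.

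Olig3 and Pax3 were under 1 FPKM at D7. Olig3 was at 0.706 and 0.417 FPKM with NanogBiD, or 26 and 14 reads, and at 0 in both NanogWT libraries. Its log2 difference of 0.64 (SE 0.29) was not called (limma adjusted p = 0.108), and at 0 reads a level of up to 0.0917 FPKM would have gone unseen. Pax3 was at 0.391 and 0.779 FPKM with NanogBiD and at 0.0326 and 0.106 with NanogWT, 0.56 apart on the log2 scale (SE 0.32, limma adjusted p = 0.221). Under 1 FPKM in both combinations a log2 difference of 1 cannot be reached, so Olig3 and Pax3 could not be called at D7. For these low genes the pseudocount weighs heavily: with 0.1 in place of 1, Olig3, Pax3 and Pax6 all passed both limits at D7.

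Sox1 behaved differently from the rest. It was at 0 FPKM in 3 of the 4 libraries of D0 and at 0.0314 in the fourth. At D1 it stood at 3.07 and 0.767 FPKM with NanogBiD and 1.98 and 0.888 with NanogWT, and at D3 at 15.0 and 9.24 against 10.9 and 8.93. From D0 to D3 it rose by 3.68 with NanogBiD and by 3.42 with NanogWT on the log2 scale (SE 0.35 each, limma adjusted p = 1.06e-07 and 2.59e-07), beside 8.95% and 9.55% of all genes called higher. The combinations overlapped at D1, D3 and D5.

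At D7 Sox1 was higher with NanogWT, at 41.4 and 30.6 FPKM, than with NanogBiD, at 17.8 and 13.0. The log2 difference was -1.17 (SE 0.35, limma adjusted p = 0.0168), where 4.65% of all genes were called lower. The call was lost without NanogBiD replicate 2 or NanogWT replicate 1 (-0.96 each) and with a pseudocount of 0.1 (adjusted p = 0.0568). A day later the order was turned, at 37.2 FPKM with NanogBiD in a single library against 10.1 and 14.1 with NanogWT, and by D12 the combinations overlapped again at 12.5 and 24.8 against 20.9 and 15.8.

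Within the NanogBiD path, Sox1 (log2 difference 4.02), Foxb1 (1.69), Neurog2 (1.34) and Pax6 (1.16) were called higher at D7 than at D0, with limma adjusted p between 2.17e-08 and 0.00116. That is 4 of the 7 tested, beside 12.7% of all genes called higher. The genes were chosen for levels later on this same path, so this count describes their course and is no test. Pax7, counted among the 7, entered the model through late NanogBiD libraries alone. Within NanogWT only Sox1 was called at D7 (5.17, SE 0.35, limma adjusted p = 6.06e-10), where the share over all genes was 12%.

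From D8 on the levels with NanogBiD are those that chose the genes, and they are described without a test. The 6 NanogWT libraries of D8 to D12 were sequenced 1.86 to 3.19 times as deeply as the typical library, against 0.813 to 1.02 for the 5 NanogBiD libraries, so depth and combination cannot be told apart at these days. At D10, 7 of the 7 genes were at least 2-fold higher with NanogBiD and did not overlap, and 15.6% of all genes met that rule. At D12, 5 of 7 did, beside 13.8% of all genes. The map of differences by day gives each value.

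**Figure D2:**
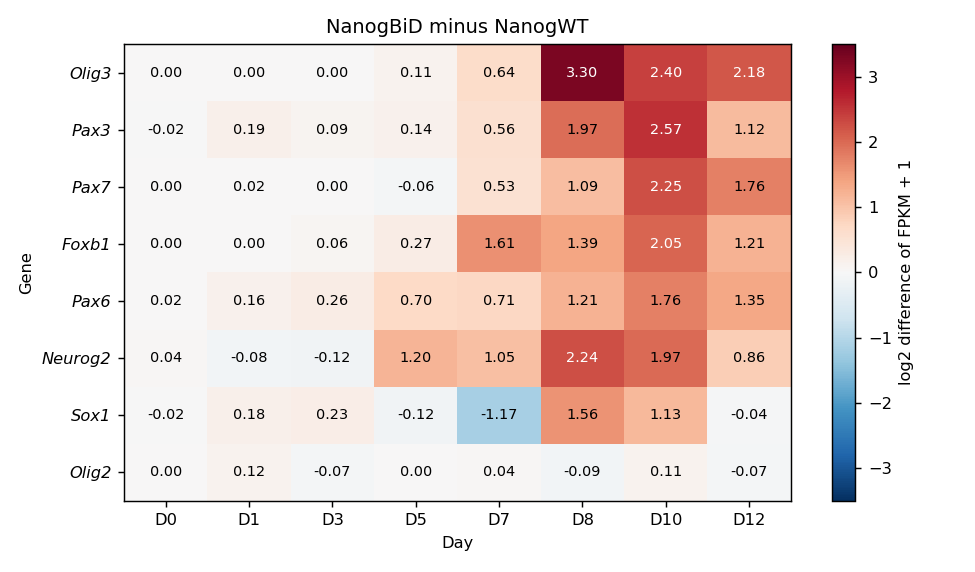
Difference between the combinations in log2(FPKM + 1), NanogBiD minus NanogWT, for each gene (rows) and day (columns), red where NanogBiD was higher. Olig3 had the highest single value (3.30 at D8, from 1 NanogBiD library), and Sox1 was the only gene with a value under -1 (-1.17 at D7).

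Among the dorsal factors, Olig3 went from 0.706 and 0.417 FPKM at D7 to 10.6 in the single NanogBiD library of D8, then 11.5 and 16.9 at D10 and 8.07 and 7.76 at D12. With NanogWT it was at 0.0618 and 0.309 FPKM at D8, 0.694 and 3.72 at D10 and 1.25 and 0.730 at D12. The combinations did not overlap on any of these days, and the log2 difference was 2.40 at D10 and 2.18 at D12. The NanogBiD mean at D12 was 55.7% of that at D10.

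Pax3 reached the highest level of the dorsal factors. With NanogBiD it was at 3.91 FPKM at D8, 15.5 and 21.9 at D10 and 13.8 and 20.2 at D12. With NanogWT it lagged, at 0.0660 and 0.479 FPKM at D8 and 0.888 and 4.71 at D10, but stood at 7.27 and 6.99 at D12. The log2 difference was 2.57 at D10 and 1.12 at D12. Pax7, the close relative of Pax3, had no such late level with NanogWT: it was at 0.138 and 0.0394 FPKM there at D12, against 1.90 and 3.67 with NanogBiD. At D10 the Pax7 values were 4.35 and 5.81 with NanogBiD and 0.0124 and 0.591 with NanogWT.

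Pax6 had a shallower course, at 3.17 FPKM at D8, 5.99 and 10.2 at D10 and 5.74 and 8.37 at D12 with NanogBiD. The NanogWT libraries held 0.657 and 0.944, then 0.827 and 2.75, and then 2.23 and 2.02 FPKM, below NanogBiD on each day. Neurog2 was at 4.59 FPKM at D8, 8.14 and 15.4 at D10 and 10.8 and 12.6 at D12 with NanogBiD. With NanogWT it was at 0.129 and 0.233, then 1.26 and 3.30, and then 7.68 and 4.61 FPKM. The groups still did not overlap at D12, where the log2 difference of 0.86 was under the 2-fold limit.

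Foxb1 held at 1.81 FPKM at D8, 3.70 and 5.22 at D10 and 2.53 and 5.97 at D12 with NanogBiD. With NanogWT it was at 0 and 0.142, then 0.112 and 0.544, and then 1.26 and 1.04 FPKM. The groups did not overlap at D12, where the log2 difference was 1.21. Just inside the 2-fold limit at D12 stood Pax3 (1.12) and Foxb1, and just outside it Neurog2 (0.86). Sox1 overlapped there, with a difference of -0.04.

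Olig2, the ventral relative of Olig3, stayed off. It was listed at 0 in 22 of 34 libraries and its highest value, 0.215 FPKM, was in a MEF library. A count of 0 allowed up to 0.0938 FPKM. Its neighbour Olig1 averaged 0.0526 FPKM with NanogBiD and 0.243 with NanogWT at D12.

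The NanogWT cells were not free of these genes. The genes were chosen for their level with the fusion, but with earlier results of these data known. Calls on the NanogWT path are thus not shown to be free of that choice. From D0 to D12 with NanogWT, 5 of the 7 genes were called higher: Sox1 (log2 difference 4.24, SE 0.35), Pax3 (2.92, SE 0.32), Neurog2 (2.80, SE 0.27), Pax6 (1.25, SE 0.26) and Foxb1 (1.10, SE 0.22), with limma adjusted p between 1.34e-08 and 0.000735. Over all genes 12.2% were called higher. Olig3 (0.98, SE 0.29, adjusted p = 0.0107 in limma) was just under the 2-fold limit. Pax7, counted among the 7, differed by 0.12 (SE 0.19). It entered the model through late NanogBiD libraries alone and was under 1 FPKM throughout with NanogWT, so no call is drawn for it. Between D7 and D12 Pax3 (2.93), Neurog2 (2.47) and Foxb1 (1.02) were called higher with NanogWT, against 6.66% of all genes. Under quantile normalization 3 of the 7 passed both limits from D0 to D12. The D12 libraries were deeper than the D0 libraries, and the part of depth in this was not tested.

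The 2 libraries of NanogWT at D10 differed from each other in these genes. All 7 tested genes were higher in replicate 2 than in replicate 1, and 3 of them, Olig3, Pax3 and Pax6, by at least 2-fold on the log2(FPKM + 1) scale, where 1.29% of all tested genes were. The ratio of replicate 2 to replicate 1 was 47.5 for Pax7, whose value in replicate 1 was 0.0124 FPKM. It was 5.35 for Olig3, 5.30 for Pax3, 4.87 for Foxb1, 3.32 for Pax6, 2.61 for Neurog2 and 1.5 for Sox1. Relative depth was 1.86 in replicate 1 and 3.09 in replicate 2. NanogBiD lay above both libraries for each of the 7 genes.

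The 6 late genes moved alike over the 31 libraries. Pearson's r of log2(FPKM + 1) lay between 0.834 (Pax7 with Neurog2) and 0.961 (Pax3 with Neurog2) in the 15 pairs among them, with a median of 0.910. The 6 pairs with Sox1 lay between 0.436 and 0.622. These libraries share time and combination, and the genes were chosen for a common late level, so the values describe the courses only.

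Among the genes whose course was most like that of Foxb1 were Smoc1 (r = 0.975), Plch1 (0.974), Kbtbd11 (0.969) and Sall1 (0.967). Of these, Smoc1, which encodes a secreted calcium-binding matrix protein, was at 28.1 FPKM with NanogBiD and 6.69 with NanogWT at D12. Unlike Foxb1, Smoc1 was also expressed in MEF (11.9 FPKM) and mES (10.7), and Sall1, a zinc finger factor of the SALL family, in mES (23.7). The genes most like Olig3 were Neurog1 (r = 0.988), Neurod4 (0.968), Fam181a (0.959), D930028M14Rik (0.955) and Fzd9 (0.954). Neurog1, the proneural relative of Neurog2, averaged 18.2 FPKM with NanogBiD and 2.26 with NanogWT at D10, and 0 in MEF. Neurod4, a neuronal differentiation factor, averaged 5.61 and 0.608 FPKM there and was at 0 in MEF and mES.

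Relatives of the 8 genes did not move as one. Of 12 paralogues, 6 passed the filter on low values, and at D12 4 were called higher and 1 lower with NanogBiD, with a median log2 difference of 1.81 beside 0.17 over all genes tested. Sox2, the SOXB1 factor shared by pluripotent and neural cells, was at 13.9 ± 2.0 against 0.492 ± 0.008 FPKM at D7 and 239 ± 38 against 34.9 ± 6.9 at D12 (SD, n = 2), with log2 differences of 3.31 (SE 0.45) and 2.74 (SE 0.45). Sox3 (1.98), Pax8 (1.94) and Neurog1 (1.69) were the others called higher at D12, and Pax1 (-1.35), a factor of the sclerotome, was lower. In mES Sox2 was at 248 FPKM, Sox3 at 7.40 and Pax8 at 0.186.

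Lists of marker genes, none of which holds the 8 genes, were read beside them. Dorsoventral patterning factors numbered 6 higher and 0 lower of 19 tested at D12 (median 0.50), led by Gsx1 (2.11), Msx2 (1.54) and Lbx1 (1.46), dorsal neural factors. Of the anterior and posterior patterning factors 4 were higher and 1 lower of 9 (median 0.53), with Pax8 and Foxd3 (1.77) higher and the forebrain factor Emx2 (-1.82) lower. Neural progenitor genes were higher for 7 and lower for 0 of 13 (median 1.10), led by Sox2, Sox3 and Msi1 (1.49), and neuron genes higher for 3 and lower for 0 of 12 (median 0.75), Neurog1, Neurod1 (1.11) and Stmn2 (1.06). At D7 the counts were 3 higher and 1 lower of 19, 1 and 0 of 9, 4 and 1 of 13, and 2 and 0 of 12 in the same order. The median over all tested genes was 0.08 at D7 and 0.17 at D12, and at D12 13.5% of all genes were called higher and 9.97% lower. Some of the named genes were also expressed in mES: Stmn2 at 55.3, Msi1 at 19.6, Foxd3 at 14.1 and Msx2 at 3.06 FPKM. Others were low there, with Lbx1 at 1.19, Neurog1 at 0.494, Neurod1 at 0.414 and Gsx1 and Emx2 at 0 FPKM. In MEF Emx2 was at 5.07 FPKM and Lbx1, Neurog1, Neurod1 and Gsx1 at 0.

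Lists of other cell types, among them skeletal muscle and neural crest, which use Pax3 or Pax7, gave mixed counts. Skeletal muscle genes were higher for 2 and lower for 1 of 7 at D7 and at D12, the latter being Six4 (1.75), Actc1 (1.34) and Met (-1.91). The defining muscle factors were low: at D12 Myf5 was at 0 in both combinations, Myod1 at 0.0782 FPKM with NanogBiD and 0 with NanogWT, and Myog at 0.495 and 0. Actc1, Acta1, Myh3 and Des of this list were chosen here after their values were seen. At D12 Actc1 was at 2.10 FPKM with NanogBiD and 0.218 with NanogWT. Acta1 was at 1.42 and 0.166 (not called) and Myh3 at 1.08 and 0.0517 (not tested). Des went the other way, at 4.44 and 8.21 FPKM. In MEF the same genes were at 2.59 (Actc1), 46.0 (Acta1), 0.890 (Myh3) and 27.5 FPKM (Des). Summed over 12 genes the muscle list was at 22.8 to 29.8 FPKM with NanogBiD and 31.7 to 33.3 with NanogWT at D12. Neural crest genes were higher for 2 and lower for 3 of 8, with Foxd3 higher and Twist1 (-3.74) and Snai2 (-2.29) lower. In MEF Twist1 was at 56.0, Snai2 at 33.9, Ets1 at 18.8, Sox9 at 8.81 and Foxd3 at 1.75 FPKM. At D12 mean levels with NanogBiD and NanogWT were 17.3 and 6.39 FPKM for Sox9 and 8.69 and 5.27 for Tfap2a. They were 8.64 and 4.68 FPKM for Tfap2b and 1.12 and 3.86 for Ets1. Sox10, a defining crest factor, was at 1.36 FPKM with NanogBiD and 0.523 with NanogWT, which was not called (0.64, SE 0.17). Glia genes were higher for 1 and lower for 2 of 7 (Gfap 1.71, S100b -3.24, Aldh1l1 -1.33), and of 5 mesendoderm genes none was called at D12. The limma counts of neural crest, glia and mesendoderm at D7 were 0 higher and 1 lower, 0 and 1, and 1 and 0.

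Pluripotency and fibroblast genes also differed between the combinations on these days. Naive pluripotency genes were higher with NanogBiD for 7 of 9 at D7 and 8 of 9 at D12, led by Dppa3 (4.06), Dppa5a (3.10) and Esrrb (3.05), and their summed level at D12 was 1064 to 2047 FPKM against 152 to 231 with NanogWT and 3402 in mES. Primed pluripotency genes were higher for 3 and lower for 1 of 5 on both days, with Dnmt3b (1.98) and Zic2 (1.36) higher and Pou3f1 (-1.80) lower at D12. Fibroblast genes were lower for 3 of 10 at D7 and 10 of 10 at D12, led by Thy1 (-3.92), Lum (-3.46) and Dcn (-3.41), with a summed level of 300.4 to 442 FPKM against 2965 to 3359. Their part in the levels of the 8 genes was not tested.

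**Figure D3:**
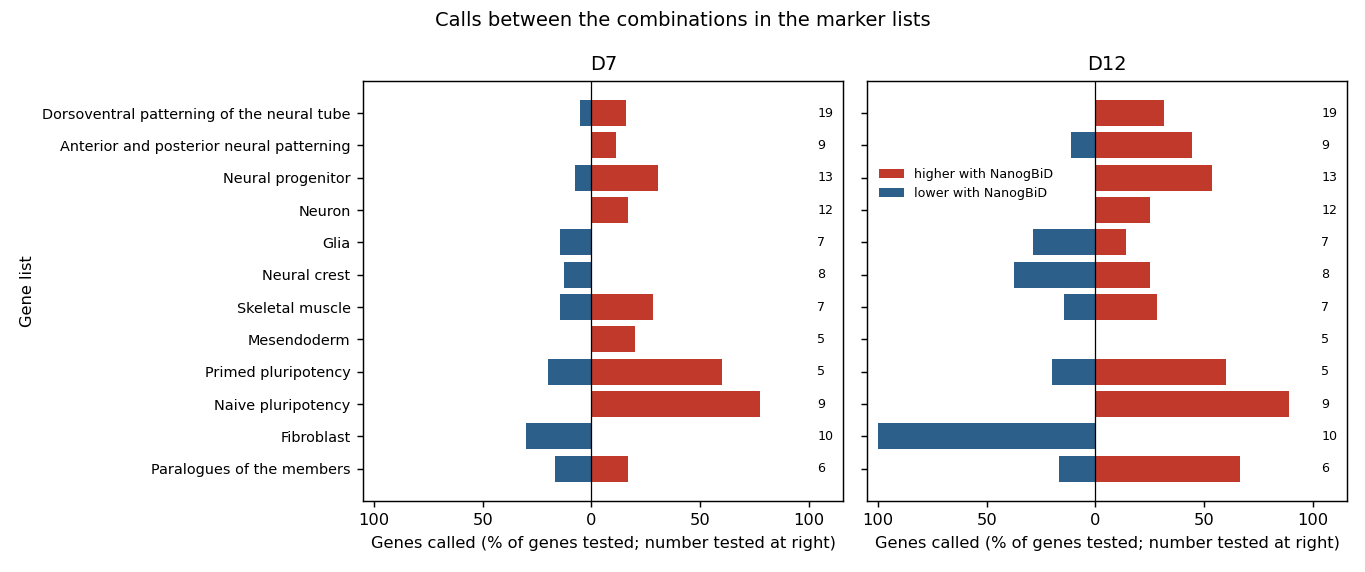
Share of the tested genes of each marker list called higher (red, right) or lower (blue, left) with NanogBiD at D7 and D12, in percent, with the number tested at the right edge. The fibroblast list was lower for 10 of 10 at D12, the naive list higher for 8 of 9, and the neural progenitor list higher for 7 of 13.

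The genes next to these 8 on the chromosomes were examined as well. Of 16 protein-coding neighbours 9 were tested, and with NanogBiD 0 were called higher at D7 or D12 in limma, while 1 was lower at D7 and 4 at D12. At D12 Anxa2 and Bnip2, on either side of Foxb1, differed by -2.99 and -1.58, Ifngr1 beside Olig3 by -1.10 and Rcn1 beside Pax6 by -1.40. Elp4, 3663 bases from Pax6, was at 5.57 and 4.21 FPKM, which was not called (0.35, SE 0.18, adjusted p = 0.121 in limma). Zgrf1, beside Neurog2, passed the adjusted p and not the 2-fold limit at D7 (0.59, limma adjusted p = 0.0274) and at D12 (0.79, limma adjusted p = 0.00199).

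In the established iPSCs the late genes were under 1 FPKM. Transcripts were summed by gene in a table of their own, and 12456 genes entered its limma model, with the label iPSC1 or iPSC2 as covariate. By the headers, all iPSC1 libraries are of later passages than all iPSC2 libraries, in both combinations. What this label stands for and passage thus cannot be told apart. NanogWT iPSC1 samples 1 and 1-2 share a number in the labels, with different passages in the headers, and may be 1 clone. Foxb1 was at 0 in 10 of 12 iPSC libraries and at most 0.0342 FPKM, Pax3 at most 0.0841, Pax7 at most 0.0653, Pax6 at most 0.194 and Neurog2 at most 0.266 FPKM. Olig2 was at most 0.0900 FPKM. None of these 6 reached 1 FPKM in any iPSC library.

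Olig3 was the highest of the late genes in iPSCs. It ran from 0.0733 through a median of 0.370 to 0.874 FPKM in the 6 NanogBiD libraries and from 0 through 0.720 to 0.971 in the 6 NanogWT libraries, which overlapped. The single mES library held 0.140 FPKM, and both MEF libraries 0. Sox1 was at 1.06 to 3.94 FPKM (median 2.25) with NanogBiD and 1.09 to 2.37 (median 1.97) with NanogWT, with 5.62 in mES. It was the only one of the 8 to pass the filter, and its log2 difference of 0.14 (SE 0.21, limma adjusted p = 0.999) was not called. No gene of the table was called in limma (0%), and 201 had an unadjusted p under 0.05. The plot of iPSC levels gives every library.

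**Figure D4:**
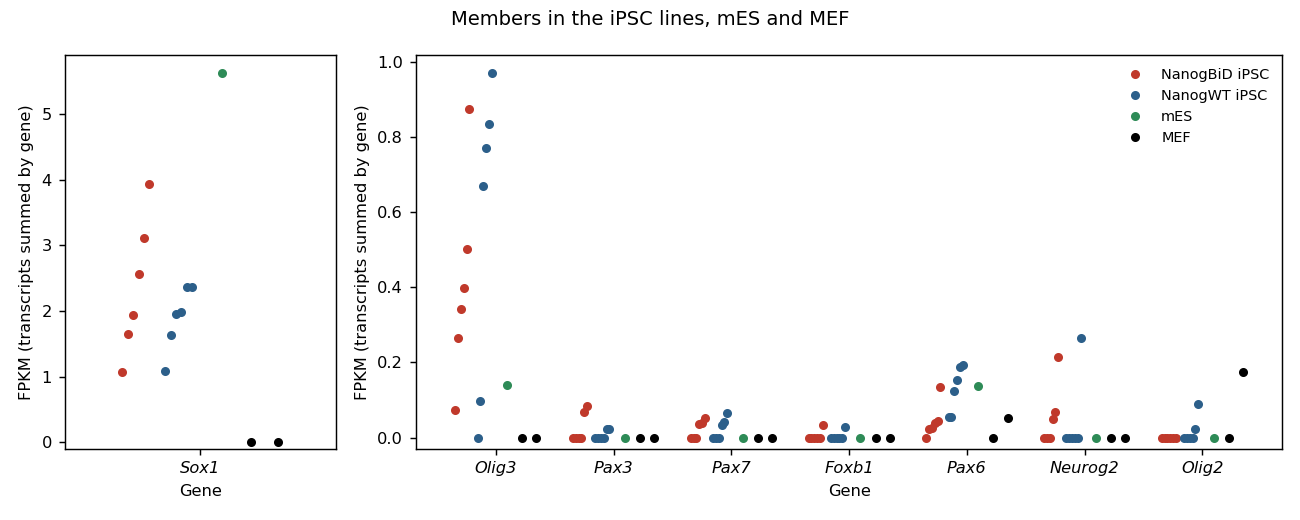
FPKM summed over transcripts for Sox1 (left) and the other 7 genes (right, own scale), 1 point per library, in NanogBiD iPSCs, NanogWT iPSCs, mES and MEF. Sox1 lay between 1.06 and 3.94 FPKM in all 12 iPSC libraries, and of the other 7 genes Olig3 reached the highest level, 0.971 FPKM.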

How the data were processed

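Per the study's methods and processing notes, the authors trimmed reads with Trim Galore 0.6.4, aligned them to mm10 with HISAT2 2.2.1 and quantified them with StringTie 2.2.1. The authors deposited FPKM, in a gene table (37108 genes, 34 libraries) and a transcript table (106520 transcripts, 15 libraries). Strand use, the gene annotation and the meaning of the replicate numbers (separate cultures or not) are not given in the sources used here, so p-values measure the spread between these libraries only.

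FPKM are not counts, so no count model was run. Low values of each of the 8 genes were whole multiples of a step worth 1 read (within 0.05 of a read, up to 300 reads), which gave read numbers, relative depth (1 at the typical library) and the level of 3 reads, the limit a count of 0 allows. Both cover counting error only. Total FPKM per time-course library was 370030 to 462190. The transcript table gave no depth.

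Values were taken as log2(FPKM + 1), which understates changes of low genes. The filter kept genes that reached 1 FPKM in 2 or more of the 31 libraries, and these entered a limma 3.58.1 fit (R 4.3.3, eBayes with trend, a mean per combination and day, two-sided) with Benjamini-Hochberg adjustment over all genes. Transcripts were summed into 35976 genes for the iPSC fit over 12 libraries. On simulated data the D7 contrast recovered 190 of 200 genes changed by 2 on the log2 scale, with 2 others called. The changed genes had a mean log2(FPKM + 1) above 1, so this rate does not cover lower genes or smaller changes. Motif scans and figures used Python 3.11.15 and matplotlib 3.10.9, and positions come from GENCODE vM21 gene models. The 8 genes and all lists were chosen with earlier results of these data known. Named beside them are 12 paralogues, up to 3 genes per marker list with the highest size of log2 difference among those called at D12, 5 genes with the highest r with Foxb1 and with Olig3 (1 of them is not reported here), and chromosomal neighbours. D8, D10 and D12 between the combinations were described without a test for the 8 genes. Alternatives were a pseudocount of 0.1, no filter, a common total (TPM), quantile normalization, the replicate number as a block, a fit to the compared groups alone and leaving out replicates.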

Additional observations from a re-analysis of the deposited data

Results flagged for a closer look

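The change of Foxb1 from D0 to D7 differed between the combinations by 1.61 on the log2 scale, by a test of the difference itself (limma adjusted p = 0.00128, 2 libraries per group). Of the 7 genes tested only Foxb1 was called, where 10.1% of all genes were. Foxb1 was chosen for its level later on the NanogBiD path, so this p-value is not free of that choice.

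Within the groups of 6 iPSC libraries, single libraries lay apart from the other 5 by Dixon's criterion (chance meets it in about 1 of 20 groups of continuous values). Where the other 5 libraries are at 0, any value above 0 meets it, so that rate does not apply. All of these values are under 0.3 FPKM. Foxb1 was at 0.0342 FPKM in NanogBiD iPSC2 sample 3 and at 0.0276 in NanogWT iPSC1 sample 2, with the other 5 libraries at 0 in each group. Olig2 was at 0.0900 FPKM in NanogWT iPSC1 sample 2, next to 0.0237 in the nearest library. Pax6 was at 0.134 FPKM in NanogBiD iPSC1 sample 4, next to 0.0440. Neurog2 was at 0.213 FPKM in NanogBiD iPSC1 sample 9, next to 0.0678, and at 0.266 in NanogWT iPSC1 sample 3, with the other 5 libraries at 0. The depth of these libraries is unknown.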

How the results depend on the processing

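With a pseudocount of 0.1 the number called between the combinations went from 1 to 3 at D5 and from 3 to 6 at D7. D7 against D0 went from 4 to 7 with NanogBiD, 1 to 3 with NanogWT and 1 to 2 in the difference. Pax7, for which no call is drawn, is among the 6 at D7 and the 7 with NanogBiD. Sox1, called lower at D7 in the main fit, is not among the 6. Rescaled to a common total (TPM), 5 were called at D7 and 2 in the difference, and fitting only the compared groups gave 2 in the difference. Under quantile normalization 3 rather than 5 were called for NanogWT D12 against D0. Leaving out 1 replicate gave 1 to 3 called at D7, with 1 without NanogBiD replicate 2 or without NanogWT replicate 1, 3 to 4 for NanogBiD D7 against D0, 5 to 6 for NanogWT D12 against D0, 6 to 7 of those at least 2-fold higher at D10 and 3 to 6 at D12, with 3 without NanogBiD replicate 2. The small D12 difference of Sox1 (-0.04) ran from -0.51 without NanogBiD replicate 2 to 0.43 without NanogBiD replicate 1, and was 0.15 without NanogWT replicate 1. The cause of these shifts was not tested. Counts at D0, D1, D3 and in iPSCs were 0 under every alternative run. The replicate numbers are shared by both combinations, and with the replicate block the counts were 0, 0, 0, 1 and 3 at D0, D1, D3, D5 and D7. For each gene, replicate 1 minus replicate 2 was taken in both combinations. Across genes these differences correlated between the combinations at 0.227, 0.135, -0.0647, -0.0429 and 0.395 at these days. With only 2 pairs a day, the numbers are not shown to pair the libraries. The block changed no count of calls.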
